A study of Mus musculus with 6 samples.

Results

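The Hox genes encode homeodomain transcription factors and lie in 4 clusters on 4 chromosomes. The 39 mouse Hox genes were taken by name from the 55055 genes of the deposited table, as every symbol made of Hox, a cluster letter from a to d and a number. Cluster a held 11 of them, cluster b 10, cluster c 9 and cluster d 9. On mm10, cluster a lies on chromosome 6 from 52155590 to 52260880 on the minus strand, cluster b on chromosome 11 from 96194316 to 96368256, cluster c on chromosome 15 from 102921103 to 103036852 and cluster d on chromosome 2 from 74668310 to 74765142, the last 3 on the plus strand. The clusters span 105.3, 173.9, 115.8 and 96.83 kb in the order a to d. Within a cluster all the genes are read in one direction, and genes at the same relative place in different clusters form paralogue groups, numbered 1 to 13.

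Along the body axis of an embryo, genes with low group numbers are used from the head end and genes with high numbers toward the tail, an arrangement called collinearity. In the female reproductive tract, Hoxa9, Hoxa10, Hoxa11 and Hoxa13 are used in that order from the oviduct through the uterus and cervix to the vagina, and the adult uterus keeps using them. Hox proteins bind DNA together with TALE homeodomain proteins of the Pbx, Meis and Pknox families. Here groups 1 to 3 are called anterior, groups 4 to 8 central and groups 9 to 13 posterior.

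RNA came from the myometrium, the smooth muscle wall of the uterus, of pregnant mice, with 3 animals whose Tcf23 gene had been knocked out by CRISPR/Cas9 (KO) and 3 wild-type animals (WT), 1 poly(A)-selected library each. The stage is E19.5 in the sample labels and day 19 of gestation in the design text, in both genotypes. The product of Tcf23 belongs to the basic helix-loop-helix transcription factors, and the study asked about its role in contraction of this muscle. The sources used here do not give the strain, the edited site, the number of founder lines or the genotype of the litters.

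Total counts were 65036402, 55643651 and 39939686 in the KO libraries and 47345181, 52733490 and 55236312 in the WT libraries, and 19599 genes passed the filter on low counts. Tcf23 had 0, 2 and 1 counts in KO libraries and 4203, 5970 and 3360 counts in WT libraries, and it fell by 12.03 on the log2 scale (edgeR quasi-likelihood test, Benjamini-Hochberg adjusted p = 0.000637). Smooth muscle marker genes were high in every library: Acta2, smooth muscle actin, ranged from 3607 to 8536 CPM (counts scaled to a common library size, with sizes adjusted by the TMM method) in KO and from 6325 to 7074 CPM in WT. A pair of marker sums did not hold steady within KO. The summed CPM of 9 smooth muscle markers was 33591, 38148.5 and 14949 in KO libraries 1, 2 and 3, against 26665.5 to 31412 in WT. The summed CPM of 7 uterine epithelial markers was 1736, 729 and 2903 in the same KO libraries, against 1101 to 2386 in WT. None of these 9 and 7 genes was at 0 in any library. KO library 3 was thus the lowest of the 6 in the first sum and the highest in the other, and KO library 2 the reverse. Some markers went against their sum. Foxa2, an epithelial marker, was lowest in KO library 3, at 0.512 CPM, and Foxa2 and Wfdc2 were highest in WT library 3. Tagln, a muscle marker, was lowest in WT library 3, and Cnn1 and Tagln were highest in KO library 1. In tissue RNA, fewer cells of a type and less RNA per cell cannot be told apart. The Hox genes of KO libraries 2 and 3 also stood apart from WT. KO library 2 was mostly above WT in clusters a and c. KO library 3 was mostly above WT in cluster b and below it in clusters c and d. KO library 1 was below every WT library in 4 tested genes each of clusters a, c and d. Results are given with and without KO libraries 2 and 3.

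Levels along each cluster are given as CPM per kb of exon, which allows genes of different length to be compared. The highest levels lay in the posterior genes of cluster a, the central and posterior genes of cluster d and the centre of cluster b, and cluster c was low throughout. In WT libraries, cluster d held 53.5 ± 3.06% of the summed Hox level, cluster a 22.3 ± 2.43%, cluster b 21.9 ± 4.30% and cluster c 2.30 ± 0.204% (SD, n = 3). Posterior genes held 61.2 ± 4.43% of it, central genes 36.2 ± 4.21% and anterior genes 2.68 ± 0.222% (SD, n = 3).

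In cluster d the level climbed from Hoxd3 at 2.98 CPM per kb, averaged over the 6 libraries, through Hoxd4 at 10.6, Hoxd8 at 11.9 and Hoxd9 at 20.7 to Hoxd10 at 31.1, the highest of all Hox genes. Hoxd11 stood at 18.0 CPM per kb. The next gene out, Hoxd12, was at 0.0065 CPM per kb, with 0 to 2 counts in any library. Hoxd13 and Hoxd1, at its 2 ends, had at most 1 count in any library. Cluster a climbed in the same direction: Hoxa2 to Hoxa7 lay between 0.0908 and 1.22 CPM per kb, Hoxa9 was at 7.36, Hoxa10 at 29.7 and Hoxa11 at 15.7. Hoxa13, the vaginal member of the series, fell outside the tested set, with 7, 0 and 0 counts in KO libraries and 40, 2 and 0 in WT libraries, so that most of its reads came from 1 WT animal.

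Cluster b peaked in its centre instead. Hoxb6 was at 21.7 CPM per kb, Hoxb7 at 12.9 and Hoxb8 at 8.90, while Hoxb4 and Hoxb5 were at 4.66 and 3.01 and Hoxb9 at 1.23. Hoxb2 and Hoxb3 were at 0.324 and 1.24 CPM per kb, Hoxb1 had 2 counts in 1 KO library and none in the others, and Hoxb13 had no count at all. In cluster c the highest gene, Hoxc6, reached 3.10 CPM per kb, the other 6 tested genes lay between 0.116 and 0.686, Hoxc13 had 0 to 4 counts and Hoxc12 none. The 10 highest Hox genes by this level were, in order, Hoxd10, Hoxa10, Hoxb6, Hoxd9, Hoxd11, Hoxa11, Hoxb7, Hoxd8, Hoxd4 and Hoxb8. Neighbours in that order were close: the WT libraries of Hoxb6 (17.6, 15.1 and 21.4 CPM per kb) and of Hoxd9 (22.5, 24.3 and 17.9 CPM per kb) overlapped, for example.

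The place of Hoxd11 in this order depends on its gene model. Exon lengths were taken from GENCODE M21 inside the gene span that the deposited table gives, which shortened 11 of the 39 genes. For Hoxd11 this left 1111 of 4212 exon bases, and with the full length its level was 4.76 CPM per kb instead of 18.0. Hoxa9 was at 4.25 with its full length and Hoxc6 at 2.04, and no other gene above 1 CPM per kb moved by more than 1.5 times. Comparisons of a gene between genotypes do not use its length.

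**Figure D1:**
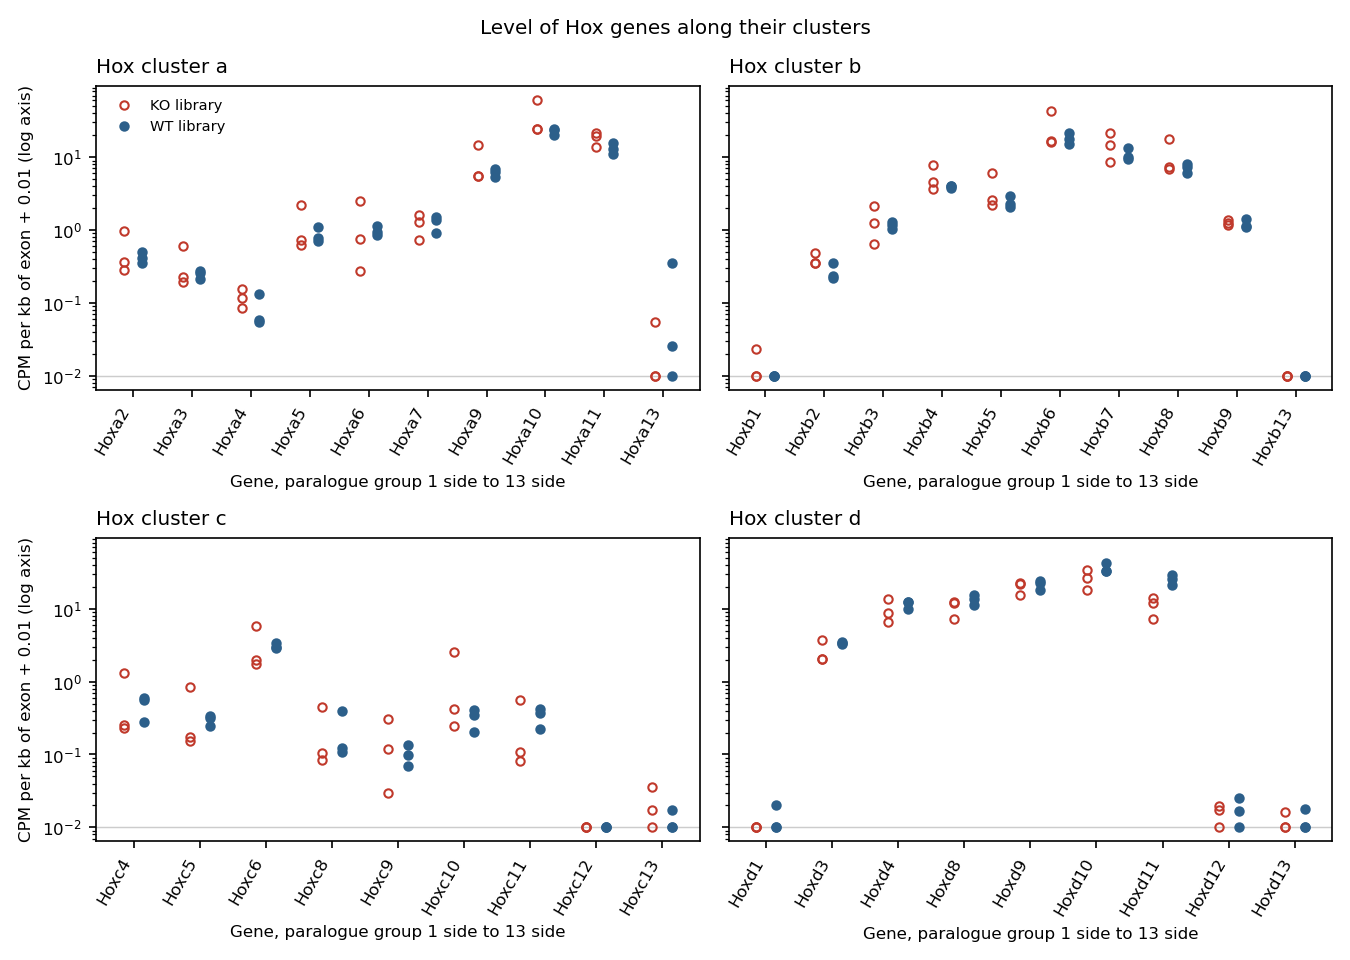
Level of Hox genes in each library, in CPM per kb of exon plus 0.01 on a log axis, with genes in order along each cluster from paralogue group 1 to group 13, KO libraries as open circles and WT libraries as filled circles to their right. Levels climb toward Hoxa10 and Hoxd10, peak at Hoxb6 in cluster b, and drop to or near the floor beyond Hoxa11, Hoxb9 and Hoxd11, apart from Hoxa13 in WT library 1.

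Of the 39 Hox genes, 30 passed the filter on low counts, and no Hox gene was called higher or lower in KO at an adjusted p under 0.05 (edgeR quasi-likelihood test, Benjamini-Hochberg adjustment over 19599 genes). Over all genes 0% were called higher and 0.0204% lower, which is 4 genes. At an unadjusted p under 0.05 there were 0 Hox genes higher and 1 lower, Hoxd11, beside 5.27% and 3.29% of all genes. The genotypes did not overlap in 1 Hox gene that was higher in KO, Hoxb2, and 1 that was lower, Hoxd11, beside 7.22% and 7.01% of all genes. The shares of Hox genes were close to or below those of all genes. Of 32 Hox genes with an adjusted p in DESeq2, Hoxd11 was called lower and none higher, beside 0.646% of all genes called lower and 1.19% called higher by that tool. Limma-voom called no Hox gene.

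The direction of the differences followed the clusters. The log2 change, KO over WT, was above 0 in 8 of 9 tested Hoxa genes, 8 of 8 Hoxb genes, 6 of 7 Hoxc genes and 0 of 6 Hoxd genes, beside 52.1% of all genes. It was below 0 in 6 of 6 tested Hoxd genes, beside 47.9% of all genes. The median log2 change was 0.46 in cluster a, 0.47 in cluster b, 0.33 in cluster c and −0.37 in cluster d, beside 0.01 over all genes tested. Genes of a cluster are neighbours in the same libraries and are not independent observations. The sign in clusters a and c rested on KO library 2, without which the medians were −0.24 and −0.74. The cluster c median was also below 0, at −0.0725, with limma-voom. The cluster b median stayed above 0 with any 1 library left out, and was 0.02 without KO library 3. For cluster d the median stayed below 0 with any 1 library left out, between −0.64 and −0.20. With limma-voom or with the replicate number as a block, 17 of the 30 log2 changes were above 0, against 22 in the edgeR fit, and without KO library 2 it was 12 of 30.

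**Figure D2:**
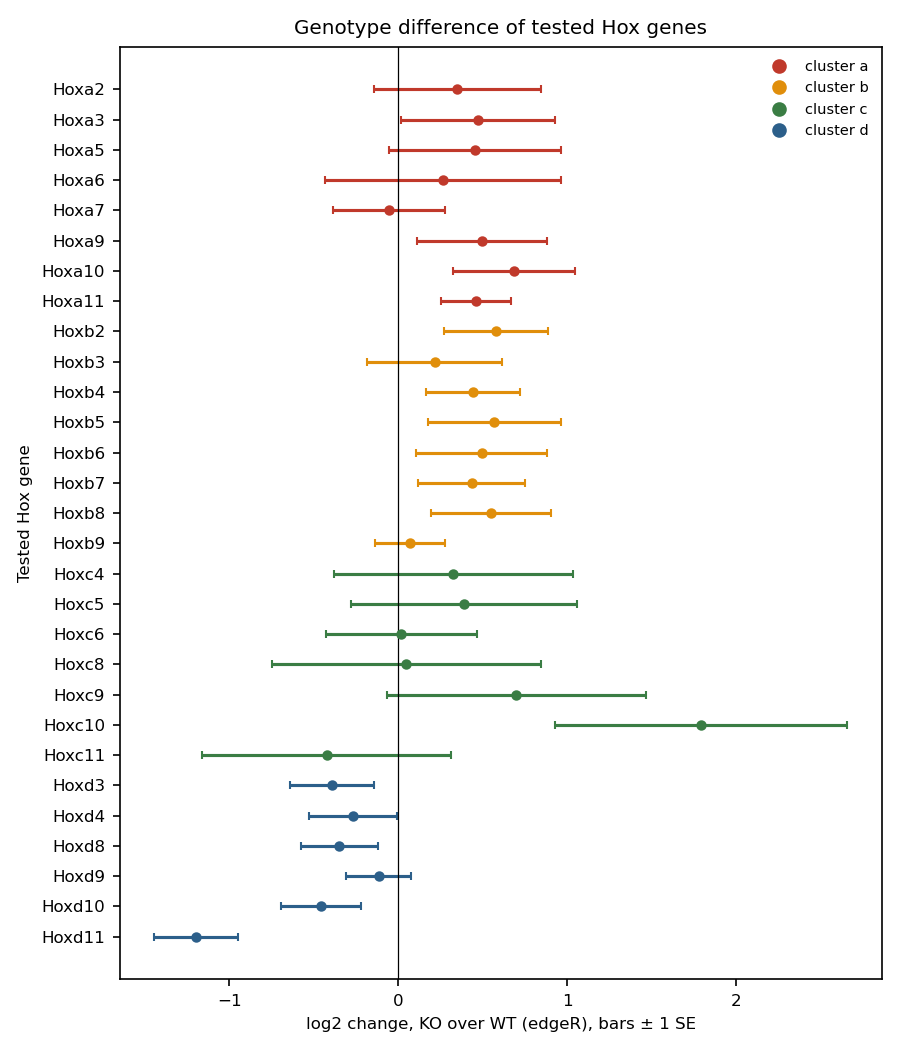
Log2 change, KO over WT, of tested Hox genes from the edgeR fit, in order along clusters a to d, with bars of 1 standard error. The 6 Hoxd genes lie to the left of 0, with Hoxd11 at −1.20, and most genes of the other clusters to the right with wide bars.

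Hoxd11, a posterior gene known for patterning the forearm and, with Hoxa11, the kidney, had the smallest p of any Hox gene. It had 15.3, 8.06 and 13.1 CPM in KO libraries 1, 2 and 3, against 32.1, 27.9 and 23.7 CPM in WT libraries 1, 2 and 3. Every KO library lay below every WT library. The means were 12.2 ± 3.73 CPM in KO and 27.9 ± 4.20 CPM in WT (SD, n = 3 each). The log2 change was −1.20 ± 0.25 (SE), with an unadjusted p of 0.00161 and a Benjamini-Hochberg adjusted p of 0.240 in the edgeR test, which does not pass the threshold. DESeq2 gave an adjusted p of 0.0025 for the same log2 change. Leaving out 1 library at a time gave log2 changes from −1.39 to −0.97 and edgeR adjusted p from 0.153 to 0.785, and with both KO libraries 2 and 3 left out the log2 change was −0.87. The summed CPM of 4 mesothelial markers, genes of the lining on the outside of the uterus, also did not overlap between the genotypes, with 31.3, 19.1 and 26.0 in KO libraries, against 166.1, 76.3 and 68.1 in WT libraries. Of the 4, Msln alone did not overlap, with 28.1, 14.0 and 17.7 CPM in KO, against 73.4, 41.7 and 64.0 CPM in WT. Upk3b, Upk1b and Lrrn4 were above KO in WT libraries 1 and 2, while in WT library 3 Upk3b and Lrrn4 lay inside the KO range and Upk1b below it. None of the 4 was at 0 in any library. Of 8 fibroblast markers, 2 were also lower in KO without overlap, Dcn and Lum, beside 7.01% of all genes. Lum had 549.7, 489.6 and 546.4 CPM in KO, against 829.4, 964.0 and 663.6 CPM in WT. The log2 change was above 0 in 3 of the 8 and below 0 in 5, and their summed CPM overlapped between the genotypes. The part of the outer lining or of fibroblasts in the Hoxd11 value was not tested. No annotated exon of another gene overlaps Hoxd11 in its deposited span.

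The 250 bases before the start of the deposited Hoxd11 span are shown because Tcf23 belongs to the basic helix-loop-helix family, whose dimers commonly bind the E-box CANNTG, although Tcf23 itself has been described as an inhibitor of such dimers, and because Hox proteins with Pbx partners bind TGATNNAT. The windows before Hoxa10 and Hoxb8 are shown with it, as the genes of clusters a and b that were high in 1 KO library each. They are read 5′ to 3′ on the strand of the gene from RefSeq on GRCm38.p6, and capitals mark an E-box or a Hox-Pbx match on either strand.
Hoxd11, chr2:74682073-74682322, plus strand: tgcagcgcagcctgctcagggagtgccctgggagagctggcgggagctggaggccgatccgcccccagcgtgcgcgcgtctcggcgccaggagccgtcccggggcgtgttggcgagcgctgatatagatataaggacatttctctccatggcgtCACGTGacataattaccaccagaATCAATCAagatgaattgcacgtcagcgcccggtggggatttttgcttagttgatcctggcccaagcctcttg
Hoxa10, chr6:52240855-52241104, minus strand: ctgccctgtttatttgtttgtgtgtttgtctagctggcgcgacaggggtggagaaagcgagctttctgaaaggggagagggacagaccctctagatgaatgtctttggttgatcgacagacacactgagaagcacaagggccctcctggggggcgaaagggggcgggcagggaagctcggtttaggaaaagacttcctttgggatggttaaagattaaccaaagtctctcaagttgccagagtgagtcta
Hoxb8, chr11:96281655-96281904, plus strand: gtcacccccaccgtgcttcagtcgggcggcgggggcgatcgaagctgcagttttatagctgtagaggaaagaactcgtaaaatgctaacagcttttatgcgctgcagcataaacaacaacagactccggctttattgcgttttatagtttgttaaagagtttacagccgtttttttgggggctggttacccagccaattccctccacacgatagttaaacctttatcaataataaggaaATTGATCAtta
The Hoxd11 window holds 1 E-box, CACGTG, that starts at position −96 from that start, and 1 Hox-Pbx match at −73. A second RefSeq start of Hoxd11 lies upstream at chr2:74679558, and the window before it holds neither motif. The Hoxb8 window holds a Hox-Pbx match at −11, and neither the Hoxa10 window shown nor that of a second RefSeq start holds either motif. RefSeq windows were matched for 22 of the 39 Hox genes, 24 windows in all. Of these, 17 hold an E-box, against 66.2% of 32851 promoter windows of the same length, and 4 hold the Hox-Pbx motif, against 7.68%. Such matches describe letters and do not show that a factor binds there.

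The rest of cluster d pointed the same way by smaller amounts. Hoxd10, which patterns the hindlimb and its motor neurons, had 47.6, 62.1 and 33.2 CPM in KO libraries, against 77.8, 59.7 and 58.7 CPM in WT libraries. KO library 2 lay within the WT range and the other KO libraries below it, and the log2 change was −0.46 ± 0.24 (edgeR adjusted p = 0.684). Hoxd9, another posterior gene, had 47.0, 47.8 and 32.7 CPM in KO, against 48.2, 51.9 and 38.3 CPM in WT, with 2 KO libraries inside the WT range. Hoxd8, a central gene, had 33.8, 33.0 and 19.6 CPM in KO, against 41.9, 37.2 and 31.0 CPM in WT. Only KO library 3 was outside the WT range of Hoxd8.

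Hoxd4 had 22.1, 34.6 and 16.8 CPM in KO libraries, against 31.4, 25.6 and 31.6 CPM in WT libraries. Hoxd3, the most anterior tested member and a gene of the neck vertebrae, had 8.07, 14.7 and 8.29 CPM in KO, against 14.0, 13.1 and 13.7 CPM in WT. In both genes KO library 2 was the highest of the 6 libraries and the other KO libraries were below all WT libraries. The log2 changes of Hoxd3, Hoxd4, Hoxd8 and Hoxd9 ran from −0.39 to −0.12, with edgeR adjusted p of 0.764 or more. KO library 3 was the lowest of the 6 libraries in 4 of the 6 tested Hoxd genes, beside 20% of all genes. It was below every WT library in all 6, for which no share over all genes was counted. Its Hoxd genes had a median of 0.550 of the WT mean, and its summed smooth muscle markers were also the lowest of the 6 libraries. The Hoxd medians of KO libraries 1 and 2 were 0.738 and 0.993 times the WT mean. For Hoxd11 the lowest library was KO library 2, whose smooth muscle sum was the highest and whose mesothelial sum was the lowest of the 6. The part of tissue composition in the Hoxd values was not tested.

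**Figure D3:**
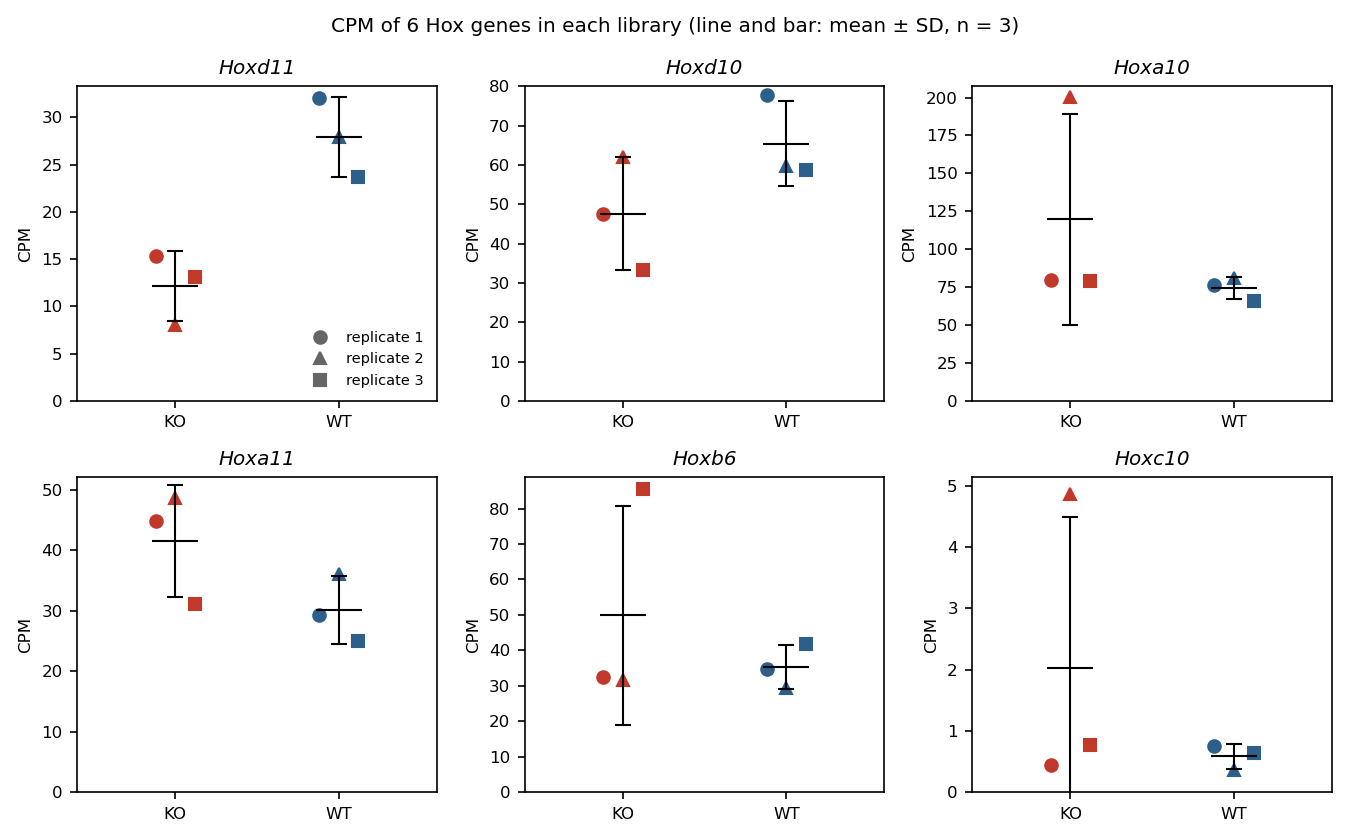
CPM of Hoxd11, Hoxd10, Hoxa10, Hoxa11, Hoxb6 and Hoxc10 in each library, KO on the left and WT on the right of each panel, with a line at the mean and a bar of 1 SD (n = 3 each, cut at 0 for Hoxc10 in KO). Hoxd11 is the one of the 6 whose genotypes do not overlap, while the KO means of Hoxa10, Hoxb6 and Hoxc10 are raised by 1 library each.

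In cluster a, the posterior genes carried most of the level and KO library 2 stood above the rest. Hoxa10, needed in the mouse uterus for implantation and decidualization, had 79.9, 200.1 and 78.8 CPM in KO libraries, against 76.2, 80.8 and 66.1 CPM in WT libraries. KO libraries 1 and 3 were inside the WT range and KO library 2 was 2.69 times the WT mean. The log2 change was 0.69 ± 0.36 (edgeR adjusted p = 0.693), and 0.10 without KO library 2. Hoxa11, also required for uterine function in the mouse, had 44.8, 48.6 and 31.1 CPM in KO, against 29.3, 36.1 and 25.05 CPM in WT. Here 2 KO libraries exceeded all WT libraries and KO library 3 lay within them, with a log2 change of 0.46 ± 0.21 (edgeR adjusted p = 0.611).

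Hoxa2, Hoxa3, Hoxa5, Hoxa6, Hoxa7 and Hoxa9 had log2 changes from −0.06 to 0.50 and edgeR adjusted p of 0.825 or more. KO library 2 was the highest of the 6 libraries in 9 of 9 tested Hoxa genes, beside 22.2% of all genes, with a median of 2.42 times the WT mean and a range from 1.28 to 2.69. The medians of KO libraries 1 and 3 were 0.909 and 0.896 times the WT mean. KO library 2 also had the highest sums of smooth muscle markers and of 6 endothelial markers (445.7, 623.1 and 332.9 CPM in KO, against 460.5 to 551.2 CPM in WT), none at 0, and the lowest sum of uterine epithelial markers. Against these sums, Cnn1 and Tagln were highest in KO library 1, the endothelial Kdr in WT library 2, and Foxa2 was lowest in KO library 3. The part of tissue composition in the Hoxa and Hoxc values was not tested. Hoxa4, which was not tested, had 11, 13 and 5 counts in KO libraries and 9, 4 and 4 counts in WT libraries.

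In cluster b it was KO library 3 that stood apart. Hoxb6, a central gene of the trunk, had 32.6, 31.6 and 85.4 CPM in KO libraries, against 34.6, 29.6 and 42.0 CPM in WT libraries. Its log2 change was 0.49 ± 0.39 (edgeR adjusted p = 0.829), and −0.14 without KO library 3. Hoxb8, known in blood cell progenitors, had 19.2, 18.4 and 46.1 CPM in KO, against 19.4, 16.2 and 21.4 CPM in WT. For both genes KO libraries 1 and 2 lay within the WT range and KO library 3 was at about 2.4 times the WT mean.

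Hoxb7 had 22.4, 13.2 and 32.9 CPM in KO libraries, against 15.3, 14.5 and 20.8 CPM in WT libraries. Hoxb4, a gene studied in blood stem cells, had 11.8, 9.32 and 20.2 CPM in KO, against 10.2, 9.73 and 10.5 CPM in WT. KO libraries 1 and 3 of both genes lay above WT, and KO library 2 below it. The log2 changes of Hoxb4, Hoxb7 and Hoxb8 were 0.44, 0.43 and 0.55, with edgeR adjusted p from 0.767 to 0.808. Hoxb9, the most posterior tested gene of the cluster, had 3.56, 2.97 and 3.22 CPM in KO, against 3.60, 2.83 and 2.87 CPM in WT, and it did not share the high value of KO library 3. Its log2 change was 0.07 ± 0.21 (edgeR adjusted p = 0.972).

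At the anterior end, Hoxb2, a gene of the hindbrain, had 0.824, 0.829 and 1.12 CPM in KO libraries, against 0.815, 0.540 and 0.500 CPM in WT libraries. The genotypes did not overlap, but KO library 1 and WT library 1 were nearly equal, with 53 and 38 counts at their different depths. The log2 change was 0.58 ± 0.31 (edgeR adjusted p = 0.700). An antisense transcript, Hoxb3os, covers 40.0% of the exon bases of Hoxb2 and 52.9% of those of Hoxb3. The sources do not say whether counting used strand, so reads in the shared bases may be mixed or left uncounted. Hoxb3 and Hoxb5 had log2 changes of 0.22 and 0.57, with edgeR adjusted p of 0.953 and 0.787. KO library 3 was the highest of the 6 libraries in 7 of 8 tested Hoxb genes, beside 21.3% of all genes, with a median of 1.97 times the WT mean. The medians of KO libraries 1 and 2 in this cluster were 1.08 and 0.962 times the WT mean. KO library 3 also had the highest sums of uterine epithelial markers and of 7 squamous epithelial markers (25.04, 9.70 and 46.6 CPM in KO, against 12.3 to 23.3 CPM in WT). Krt13, one of the squamous markers, was at 0 in KO library 2 and WT library 2 and highest in WT library 3. Trp63, another, was lowest of the 6 in KO library 3, at 0.122 CPM, and highest in KO library 2, at 0.307 CPM. Of the uterine epithelial markers, Foxa2 was lowest in KO library 3, and Foxa2 and Wfdc2 were highest in WT library 3. The part of epithelial cells in the Hoxb values was not tested.

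Cluster c was the lowest cluster, and its largest log2 change came from 1 animal. Hoxc10, a hindlimb gene, had 0.451, 4.87 and 0.780 CPM in KO libraries, from 29, 270 and 32 counts, against 0.750, 0.366 and 0.642 CPM in WT libraries. Its log2 change was 1.80 ± 0.87 (edgeR adjusted p = 0.643) with all libraries and 0.06 without KO library 2. Hoxc11, the next gene toward the posterior end, had 1.10, 0.144 and 0.195 CPM in KO, against 0.836, 0.732 and 0.428 CPM in WT. These came from 71, 8 and 8 counts in KO and 39, 38 and 24 counts in WT. KO library 2 was thus the highest library for Hoxc10. For its neighbour Hoxc11 it was the lowest, on the same 8 counts as KO library 3. The log2 change of Hoxc11 was −0.42 ± 0.74 (edgeR adjusted p = 0.951).

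Hoxc4, at the anterior end of the cluster, had 0.575, 3.34 and 0.634 CPM in KO libraries, against 1.52, 1.43 and 0.696 CPM in WT libraries. Its log2 change was 0.33 ± 0.71 (edgeR adjusted p = 0.959) with all libraries and −0.998 without KO library 2. Hoxc5, Hoxc6, Hoxc8 and Hoxc9 had log2 changes from 0.02 to 0.70, with edgeR adjusted p of 0.901 or more. KO library 2 was the highest of the 6 libraries in 6 of 7 tested Hoxc genes, beside 22.2% of all genes, with a median of 2.75 times the WT mean. The medians of KO libraries 1 and 3 were 0.630 and 0.487 times the WT mean. KO library 3 was the lowest of the 6 libraries in 3 of the 7 genes, beside 20% of all genes. It lay below every WT library in 6 of the 7, for which no share over all genes was counted. Its reads were few, with 2 counts for Hoxc9, 8 for Hoxc11 and 10 for Hoxc8.

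**Figure D4:**
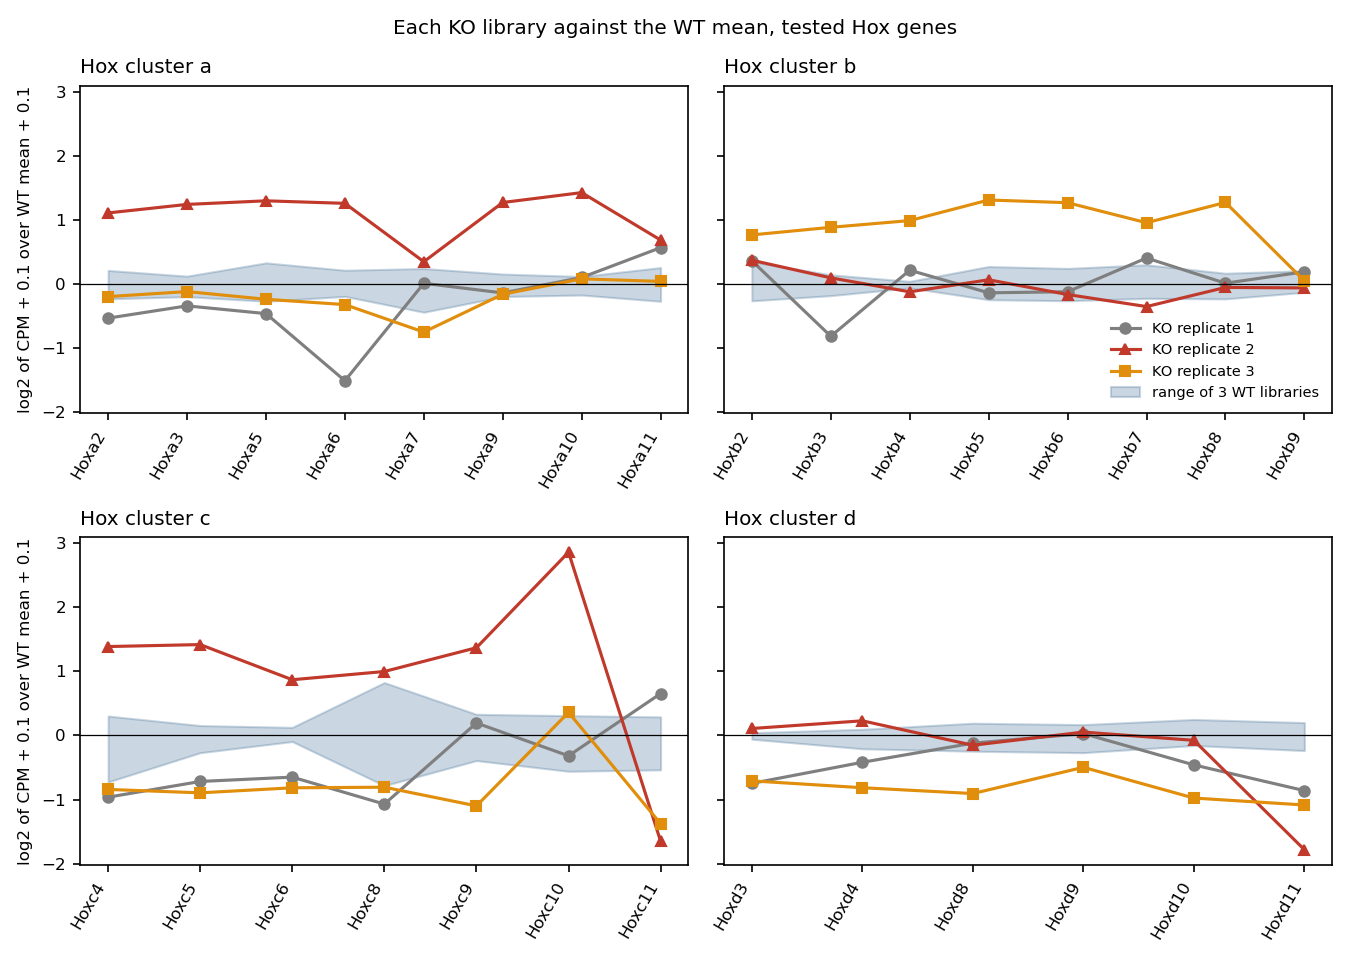
Log2 ratio of each KO library to the WT mean (CPM plus 0.1 in both) for tested Hox genes in order along each cluster, with the range of the 3 WT libraries shaded. KO replicate 2 runs above the shaded range across clusters a and c except at Hoxc11, and KO replicate 3 runs above it from Hoxb2 to Hoxb8 and below it across cluster d. KO replicate 1 lies below it in 4 genes each of clusters a, c and d, and above it in 3 genes of cluster b.

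The KO animals therefore differed among themselves more than the WT animals did. The highest KO library exceeded the lowest by more than 2-fold in 22 of the 30 tested Hox genes, beside 27% of all genes, and the median ratio was 2.62, beside 1.54 over all genes. Among WT libraries the same held for 4 of 30 Hox genes, all in cluster c, beside 11.6% of all genes, with a median ratio of 1.36 beside 1.26 over all genes. By cluster the median ratio was 2.70 in a, 2.50 in b, 5.91 in c and 1.84 in d among KO libraries, and 1.37, 1.37, 2.05 and 1.34 among WT libraries. Whether the spread itself differs between the genotypes was not tested.

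The summed Hox level overlapped between the genotypes, while the share from each cluster varied among the animals. All Hox genes together summed to 188.3, 250.2 and 210.1 CPM per kb in KO libraries, against 221.7, 203.7 and 195.6 CPM per kb in WT libraries. Cluster a supplied 27.8, 42.1 and 21.9% of it in KO, against 21.2, 25.04 and 20.6% in WT. Cluster b supplied 25.3, 16.2 and 47.7% in KO, against 19.8, 19.1 and 26.9% in WT. KO library 2 therefore had the largest share of cluster a and the smallest of cluster b, and KO library 3 the largest share of cluster b.

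Cluster c supplied 1.76, 4.47 and 1.30% in KO libraries, against 2.53, 2.23 and 2.14% in WT libraries. Cluster d supplied 45.1, 37.2 and 29.1% in KO, against 56.5, 53.6 and 50.4% in WT. Its share was lower in every KO library than in any WT library, with means of 37.1 ± 8.01% in KO and 53.5 ± 3.06% in WT (SD, n = 3 each). A share also falls when another cluster rises, as cluster a did in KO library 2. The summed level of cluster d was 85.0, 93.0 and 61.1 CPM per kb in KO, against 125.3, 109.2 and 98.6 in WT. This separation of the sums depends on the Hoxd11 gene model. With full exon lengths, or with CPM not divided by length, the sum of KO library 2 exceeds that of WT library 3. In KO library 2 the median Hoxd gene was at 0.993 times the WT mean. By position, posterior genes supplied 60.5, 66.0 and 43.003% in KO, against 62.8, 64.5 and 56.1% in WT. KO library 3 was the only one below the WT range and KO library 2 lay just above it. The posterior share of KO library 3 was the lowest of the 6, and its central share, 54.5%, was the highest of the 6.

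**Figure D5:**
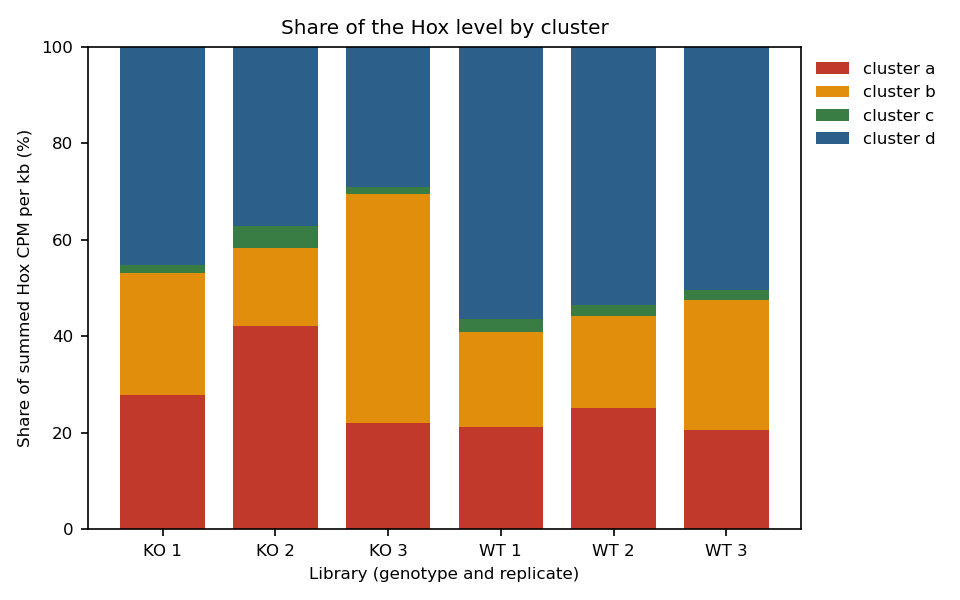
Share of the summed Hox level, in CPM per kb, that each of the 4 clusters supplied in each library, KO libraries on the left and WT libraries on the right. The cluster d share is 29.1 to 45.1% in KO and 50.4 to 56.5% in WT, cluster a is largest in KO 2 and cluster b in KO 3.

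In paralogue groups 10 and 11, the ratio of the cluster a gene to the cluster d gene was higher in KO. These ratios were chosen after their values were seen and are given as a description. The level of Hoxa10 per kb was 0.933, 1.79 and 1.32 times that of Hoxd10 in KO libraries, against 0.544, 0.751 and 0.625 times in WT libraries. The level of Hoxa11 per kb was 1.42, 2.93 and 1.15 times that of Hoxd11 in KO, against 0.444, 0.628 and 0.514 times in WT. The 2 genes of a pair were not both outside their WT range in each KO library. Hoxa10 lay inside it in KO libraries 1 and 3, Hoxd10 in KO library 2 and Hoxa11 in KO library 3. Neither ratio overlapped between genotypes. Hoxd11 therefore exceeded its cluster a paralogue in every WT library and in no KO library with these exon lengths, an order that depends on the Hoxd11 gene model. Along cluster d itself, the level of Hoxd11 per kb was 0.527, 0.212 and 0.645 times that of Hoxd10 in KO, against 0.674, 0.765 and 0.660 times in WT.

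Between the first and the last Hox gene of the clusters lie 43 other annotated genes, of which 17 were tested and none was called (smallest edgeR adjusted p = 0.378). At an unadjusted p under 0.05, 1 was higher and 0 were lower, beside 5.27% and 3.29% of all genes. The one was Hoxa11os, the antisense transcript of Hoxa11, with 153, 109 and 85 counts in KO libraries (2.38, 1.97 and 2.07 CPM), against 64, 68 and 59 counts in WT libraries (1.37, 1.31 and 1.05 CPM). Every KO library lay above every WT library, and the log2 change was 0.78 ± 0.23. It shares 800 exon bases with Hoxa11, 35.0% of the Hoxa11 exons, on the opposite strand, so reads in these bases may be mixed or left uncounted. Gm14396, a non-coding gene between Hoxd10 and Hoxd9, was the other tested gene whose genotypes did not overlap, with 1.15, 2.87 and 2.27 CPM in KO, against 3.09, 3.24 and 2.96 CPM in WT, and a log2 change of −0.57 ± 0.34 (edgeR adjusted p = 0.752). Hoxa11os and Gm14396 were the 1 higher and 1 lower gene without overlap among the 17, beside 7.22% and 7.01% of all genes.

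The clusters also hold microRNA genes of the miR-10 and miR-196 families, whose mature sequences are shown because the copies in different clusters keep the same seed, written in capitals (bases 2 to 8 from the 5′ end, RefSeq).
miR-10a-5p, from Mir10a in cluster b: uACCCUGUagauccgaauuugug
miR-10b-5p, from Mir10b in cluster d: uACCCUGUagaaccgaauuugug
miR-196a-5p, from Mir196a-1 in cluster b and Mir196a-2 in cluster c: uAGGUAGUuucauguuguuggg
miR-196b-5p, from Mir196b in cluster a: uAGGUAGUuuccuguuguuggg
The libraries were poly(A)-selected, so reads at these genes come from longer transcripts and do not measure the mature microRNAs. Mir196b, between Hoxa9 and Hoxa10, had 14, 47 and 7 counts in KO libraries and 11, 20 and 16 counts in WT libraries, highest in KO library 2 like the Hoxa genes around it. Mir10a, near Hoxb4, had 29, 46 and 61 counts in KO and 27, 42 and 54 counts in WT. Their log2 changes were 0.45 ± 0.63 and 0.21 ± 0.46, with edgeR adjusted p of 0.925 and 0.958.

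Among the other genes of the Hox system, no listed cofactor, regulator, patterning gene or neighbour was called by edgeR, while DESeq2 called 2 of 81 with an adjusted p, Cyp26a1 and Pax8, both higher in KO, beside 1.19% of all genes called higher. All 9 TALE cofactors were tested, 7 with a log2 change above 0 and 2 below, with a median of 0.08. Among them the log2 changes were 0.12 for Pbx2, −0.20 for Pbx3, 0.80 for Pbx4, 0.17 for Meis1, −0.10 for Meis2, 0.08 for Meis3, 0.03 for Pknox1 and 0.24 for Pknox2. A list of trithorax and polycomb genes, which keep Hox clusters active or silent, also held Ctcf, an insulator protein, and Rad21, a cohesin subunit. Of its 28 tested genes, 13 had a log2 change above 0 and 15 below, with a median of −0.02. The smallest p belonged to Bmi1, a polycomb protein, with −0.37 ± 0.14 (edgeR adjusted p = 0.496), and Eed, another polycomb protein, had −0.22 ± 0.12 (edgeR adjusted p = 0.693).

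Of 21 genes of retinoic acid handling and the Cdx factors, which act upstream of Hox genes in the embryo, 16 were tested, and 15 had a log2 change above 0 and 1 below, with a median of 0.32. Cyp26a1, which breaks down retinoic acid, had 11.6, 19.4 and 10.9 CPM in KO libraries, against 2.08, 3.80 and 3.46 CPM in WT libraries. Every KO library was above every WT library, and the log2 change was 2.16 ± 0.32 (edgeR adjusted p = 0.119, DESeq2 adjusted p = 2.77e-08). Cyp26b1, a related enzyme, had 58.1, 36.7 and 62.9 CPM in KO, against 31.1, 21.4 and 35.8 CPM in WT, with a log2 change of 0.84 ± 0.26 (edgeR adjusted p = 0.405). Aldh1a3, which makes retinoic acid, had 8.47, 2.09 and 0.975 CPM in KO, against 1.09, 0.752 and 1.37 CPM in WT, with a log2 change of 1.85 ± 0.74 (edgeR adjusted p = 0.547) that was 0.53 without KO library 1. The Cdx genes were not tested. Cdx2 had 121, 1 and 0 counts in KO, against 7, 1 and 7 counts in WT, Cdx1 had 1 count in KO library 1 and none elsewhere, and Cdx4 was at 0 in every library. KO library 1, the highest for Aldh1a3 and Cdx2, also had the highest summed CPM of 8 markers of placenta and fetal membranes, with 295.2, 10.3 and 1.29 in KO, against 37.8, 34.7 and 39.2 in WT. Most of that sum was Tpbpa, a trophoblast gene, at 243.7 CPM in KO library 1, and Gcm1 was at 0 in all libraries but WT library 3. The part of such tissue in the Aldh1a3 and Cdx2 values was not tested.

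Of 18 genes that pattern the Müllerian duct, the embryonic source of the uterus, 15 were tested, 7 above and 8 below 0, with a median of −0.18. Pax8, a factor of the duct epithelium, had 43.4, 54.5 and 103.3 CPM in KO libraries, against 26.8, 22.7 and 35.0 CPM in WT libraries, with a log2 change of 1.25 ± 0.33 (edgeR adjusted p = 0.334, DESeq2 adjusted p = 0.0205). Msx2 had a log2 change of −1.26 ± 0.34 and Amhr2, the receptor of anti-Müllerian hormone, of 1.33 ± 0.49, with edgeR adjusted p of 0.339 and 0.509. Of 6 genes reported downstream of Hoxa10 or Hoxa11, 5 were tested, 2 above and 3 below 0, with a median of −0.18. Itgb3, an integrin chain, had 186.2, 292.1 and 122.5 CPM in KO, against 374.6, 363.8 and 331.4 CPM in WT, a log2 change of −0.83 ± 0.30 (edgeR adjusted p = 0.480). The log2 changes of Pgr, the progesterone receptor, and Ptger4, a prostaglandin E receptor, were −0.52 and 0.54.

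Of 12 genes that flank the clusters, 9 were tested, 3 above and 6 below 0, with a median log2 change of −0.05. Skap1, beside cluster b, had 1.63, 2.34 and 3.41 CPM in KO libraries, against 1.5, 1.23 and 1.73 CPM in WT libraries, highest in KO library 3 as most Hoxb genes were, with a log2 change of 0.72 ± 0.32 (edgeR adjusted p = 0.601). Ttll6, on the other side of cluster b, was highest in WT library 3, at 3.23 CPM, with 3.17 CPM in KO library 3. Mtx2, beside cluster d, had 44.6, 40.1 and 39.5 CPM in KO, against 53.9, 47.5 and 47.1 CPM in WT. Its KO libraries all lay below its WT libraries, with a log2 change of −0.26 ± 0.12 (edgeR adjusted p = 0.622). Lnpk, on the other side of cluster d, had 9.19, 11.8 and 11.3 CPM in KO, against 12.6, 12.5 and 12.4 CPM in WT. The log2 change of Lnpk was −0.21 ± 0.15 (edgeR adjusted p = 0.792). Of the 9 tested flanking genes, 0 were higher and 2 lower without overlap, Mtx2 and Lnpk, beside 7.22% and 7.01% of all genes. Smug1, beside cluster c, had a log2 change of −0.23 ± 0.15, and Hibadh and Skap2, which flank cluster a, had log2 changes of 0.03 and −0.01, with KO library 2 the lowest of the 6 libraries in both.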

How the data were processed

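Poly(A) libraries of myometrium from 3 KO and 3 WT mice were compared. The authors deposited a file of raw counts by Ensembl gene per library, and a joint normalized table whose signal is, in each library, the raw counts multiplied by a fixed factor of 0.804 to 1.26. The build mm10 and the tools HISAT2 2.2.1, HTSeq 0.9.1, FastQC 0.73 and DESeq2 2.11.40.7 are listed in the submitters' processing notes. No source used here gives the annotation release or the strand setting. The library kit is directional, per the labels' protocols.

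The test of the deposited counts used edgeR 4.0.16 in R 4.3.3: filterByExpr, TMM, quasi-likelihood fit on genotype, Benjamini-Hochberg adjusted p under 0.05 over 19599 genes (biological coefficient of variation 26.3%). CPM are on TMM-scaled library sizes. Levels divide CPM by merged GENCODE M21 exon length inside the deposited gene span; 54804 of 55055 identifiers were found there, and 28 of 39 Hox genes at the same position. The standard error of a log2 change is its size over the square root of F. The fit was also run on simulated data with equal dispersion in both genotypes, which does not cover the wider spread among KO libraries. DESeq2 1.42.0, limma-voom and limma 3.58.1 on log2 of the normalized values plus 1, other scalings, filters and lengths, a replicate block and leaving out libraries were alternatives.

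The members and gene lists were chosen with earlier results of these data known. Values in every library are given for the 10 Hox genes of highest level, the 5 with the smallest p in each direction, those without overlap between genotypes and the tested genes nearest each cluster end. Other lists name up to 3 members of smallest p and the Pbx, Meis and Pknox genes. Some genes that this rule selects are not reported here and are left out of the figures, while counts and medians include them. Skap2, Hibadh, Ttll6, Lnpk, Ctcf, Rad21, Acta2, other single markers of cell types and the genes inside the clusters that are not Hox genes were named outside this rule.

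Replicate numbers are shared between genotypes in the sample titles. Deviations from the group mean correlated at 0.131, 0.249 and 0.320 between libraries of the same number and at −0.307 to 0.119 otherwise, so the numbers were taken as pairs for the block. What links them is not stated. No 2 replicates were duplicates: chi-square between them was 35.4 to 233 per degree of freedom.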

Additional observations from a re-analysis of the deposited data

How the results depend on the processing

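No alternative made a Hox gene pass the threshold except DESeq2, which called 1 lower, Hoxd11. Listed genes called numbered 1 without a filter (Cyp26a1), 2 with DESeq2 (Cyp26a1 and Pax8) and 1, Ptger3, without both KO 2 and KO 3, an alternative chosen after seeing the data in which the lone KO library is assumed to vary like WT. The median log2 change of tested Hox genes, 0.37, was −0.14 without both KO 2 and KO 3 and ran from −0.22 to 0.66 with 1 library left out. With the replicate block it was 0.12, no Hox call changed, and Hoxd11 had an adjusted p of 0.159. Hoxc4 changed sign, to −0.0725 with limma-voom, −0.10 with limma on normalized values and −0.0648 with the replicate block. Without both KO 2 and KO 3 the log2 changes that turned were Hoxb6 −0.12, Hoxc10 −0.38, Hoxc11 0.73, Hoxc4 −1.07, Hoxd9 0.0252 and Meis2 0.0746. With 1 library left out, log2 changes that turned ran from −0.998 to 0.73 for Hoxc4, −1.96 to 0.0184 for Hoxc11, −0.14 to 0.74 for Hoxb6, −0.0195 to 0.78 for Hoxb8, −0.24 to 0.04 for Hoxd9, −0.30 to 0.15 for Meis2 and −0.0683 to 0.12 for Pknox1. WT shares moved with another length: cluster a 26.4% and cluster d 47.5% with the longest transcript, 29.1%, 47.8% and, for cluster c, 1.94% without length, and 49.6% for cluster d and 2.004% for cluster c with full GENCODE M21 exons, an alternative also added after seeing the data. The cause was not tested for the calls; the turns by left-out libraries come from fewer samples. With 3 animals each, 1 animal can set the sign of a Hox gene, and genes below 1 CPM rest on few reads.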
